A study of Mus musculus with 20 samples.

Results

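The 10 genes that encode enzymes of de novo purine and pyrimidine synthesis, Ppat, Gart, Pfas, Paics, Adsl, Atic, Impdh2, Cad, Dhodh and Umps, were followed by RNA sequencing in p19/Nras cells with and without Trim33. They were taken by symbol from a fixed list, and all 10 were found among the 13107 genes of the Myc experiment and among the 11210 genes of the hydroxyurea (HU) experiment. The cells are a mouse line labelled as hepatocellular carcinoma that lacks p19 and carries Nras, features shared by all 20 libraries. In the Myc experiment, 12 libraries formed 6 groups of 2: cells with a control guide (WT) and cells of 2 lines with a Trim33 guide (KO1 and KO2), each with the empty pWZL vector (Ctrl) or with a Myc vector (Myc). In the HU experiment, 8 libraries formed 4 groups of 2, in which WT cells and cells with a Trim33 guide (KO) received vehicle (untreated) or HU at 1 mM for 4 h. HU inhibits ribonucleotide reductase, the enzyme that turns ribonucleotides into deoxyribonucleotides. The labels do not say which line the KO of the HU experiment was, whether a line was 1 clone or a pool, or whether the 2 libraries of a group came from separate cultures, so that every p-value measures only the spread between these libraries, which may be technical.

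Purine synthesis builds the ring step by step on phosphoribosyl pyrophosphate (PRPP). Ppat, the amidophosphoribosyltransferase, commits PRPP to the pathway, the multifunctional enzymes Gart and Paics and the single-function enzymes Pfas and Adsl carry the middle steps, and Atic closes the ring to give inosine monophosphate (IMP). Impdh2 then directs IMP towards guanine nucleotides. In pyrimidine synthesis Cad, a fusion of carbamoyl phosphate synthetase, aspartate transcarbamoylase and dihydroorotase, starts the ring, Dhodh oxidizes dihydroorotate at the inner mitochondrial membrane, and Umps adds the ribose phosphate to give uridine monophosphate (UMP). Dividing cells rely on these routes for RNA and DNA precursors, and several of the genes, Cad among them, are textbook targets of the transcription factor Myc, which binds DNA with its partner Max at the E-box, CACGTG.

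Depth separated the experiments, with 14753177 to 17949430 counts per library in the Myc experiment and 2315327 to 3082202 in the HU experiment. Trim33 mRNA did not follow the labels throughout the Myc experiment. Its level, in TMM-scaled CPM (counts brought to a common library size, which TMM corrects for composition), was 246 and 258 for WT Ctrl, 123 and 130 for KO1 Ctrl and 201 and 207 for KO2 Ctrl. With the Myc vector it was 131 and 155 CPM for the libraries labelled WT Myc, 185 and 193 CPM for those labelled KO1 Myc and 124 and 125 CPM for KO2 Myc. By mRNA, the libraries labelled WT Myc were therefore below those labelled KO1 Myc. The study reports that CRISPR abolished Trim33 expression and shows WT and KO lines by immunoblot. Only mRNA was counted here, not protein. In the HU experiment Trim33 was at 125 to 142 CPM in the 4 WT libraries and at 43.8 to 52.2 CPM in the 4 KO libraries. Counted Myc mRNA was at 433 and 439 CPM for WT Ctrl, 186 to 219 CPM over the 4 KO Ctrl libraries, 456 and 458 CPM in the libraries labelled WT Myc, 621 and 646 CPM in those labelled KO1 Myc and 459 and 499 CPM in KO2 Myc. Whether reads from the vector are part of these counts was not tested. Of 6 hepatocyte markers, Alb and Hnf4a among them, 0 were in either table, and of 4 fetal liver markers only Afp was, at 0.221 to 33 CPM in the Myc experiment. Of 4 epithelial markers, Epcam and Cdh1 were in neither table, while Krt8 and Krt18 summed to 1860 to 3890 CPM in the Myc experiment. Of 3 biliary markers, Krt7 was in neither table, while Krt19 and Sox9 summed to 78.3 to 603 CPM in that experiment. The 5 fibroblast markers, Vim among them, summed to 2780 to 4100 CPM there. Such sums do not show which gene carried them. The defining hepatocyte genes were thus absent from the tables of cells labelled as liver.

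The promoters of 3 members are shown because they hold the E-box letters. A search of 300 bases around the start site, 250 before it and 50 from it on, found CACGTG, which reads the same on both strands, in 3 of the 8 members with an entry in the RefSeq promoter table (37.5%) and in 7.15% of all 32851 RefSeq windows. The 250 bases before the start site of Paics (chr5:77380077-77380326, plus strand), Atic (chr1:71603480-71603729, plus strand) and Impdh2 (chr9:108462517-108462766, plus strand), located in NCBIM37, are given 5′ to 3′ with CACGTG in capitals.
Paics: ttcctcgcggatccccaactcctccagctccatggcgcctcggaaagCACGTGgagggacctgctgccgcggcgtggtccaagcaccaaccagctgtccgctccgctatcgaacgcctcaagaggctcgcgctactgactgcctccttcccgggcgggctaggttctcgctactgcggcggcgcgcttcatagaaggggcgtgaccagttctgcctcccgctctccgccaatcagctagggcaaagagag
Atic: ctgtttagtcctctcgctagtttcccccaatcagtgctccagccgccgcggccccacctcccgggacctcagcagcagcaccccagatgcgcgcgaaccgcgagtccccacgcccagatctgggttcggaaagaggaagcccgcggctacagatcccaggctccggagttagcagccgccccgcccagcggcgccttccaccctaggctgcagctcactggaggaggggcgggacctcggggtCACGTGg
Impdh2: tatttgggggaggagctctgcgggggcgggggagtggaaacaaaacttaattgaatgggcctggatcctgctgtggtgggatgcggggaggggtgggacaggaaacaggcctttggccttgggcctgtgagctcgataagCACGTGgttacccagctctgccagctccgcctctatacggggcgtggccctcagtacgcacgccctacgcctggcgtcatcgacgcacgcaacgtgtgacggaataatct
CACGTG began 203 bases before the start site in Paics, 110 bases before it in Impdh2 and 7 bases before it in Atic. The Paics stretch lies within the annotated gene of Ppat (chr5:77342274-77380603, minus strand). Its CACGTG is downstream of the Ppat start site and outside the window searched for Ppat. It was not found in the windows of Ppat, Gart, Adsl, Cad or Umps, and Pfas and Dhodh had no entry. Bases outside these windows were not searched, so a site farther downstream would be missed. Paics and Ppat lie head to head on chromosome 5, with start sites 276 bases apart on opposite strands, and share 272 exon bases in the annotation, 6.15% of the exon length of Ppat and 8.67% of that of Paics, within which reads of the pair cannot be told apart without strand. Gart shares 676 exon bases (16.9%) with Gm15964 and Umps 213 (6.11%) with Gm15829, and the counts of these members are uncertain to that extent.

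Levels per length differed widely between the enzymes. In WT Ctrl, the CPM per kilobase of exon was highest for Paics (136), Impdh2 (76.9) and Atic (66.9), lay between 15.2 and 24.1 for Adsl, Gart, Umps, Cad and Ppat, and was lowest for Pfas (9.41) and Dhodh (1.57). In untreated WT cells of the HU experiment, Paics (125) and Impdh2 (90.2) again led and Pfas (9.53) and Dhodh (3.09) again came last. Across the 6 groups of the Myc experiment, 7 of the 10 members had their lowest mean CPM for WT Ctrl (Ppat, Gart, Paics, Impdh2, Cad, Dhodh and Umps), and 8 had their highest in KO2 Myc (those 7 and Pfas). Adsl and Atic ran the other way, with their highest mean in WT Ctrl. The span from the lowest to the highest group mean was narrow, from 1.18-fold for Adsl to 2.00-fold for Impdh2.

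**Figure D1:**
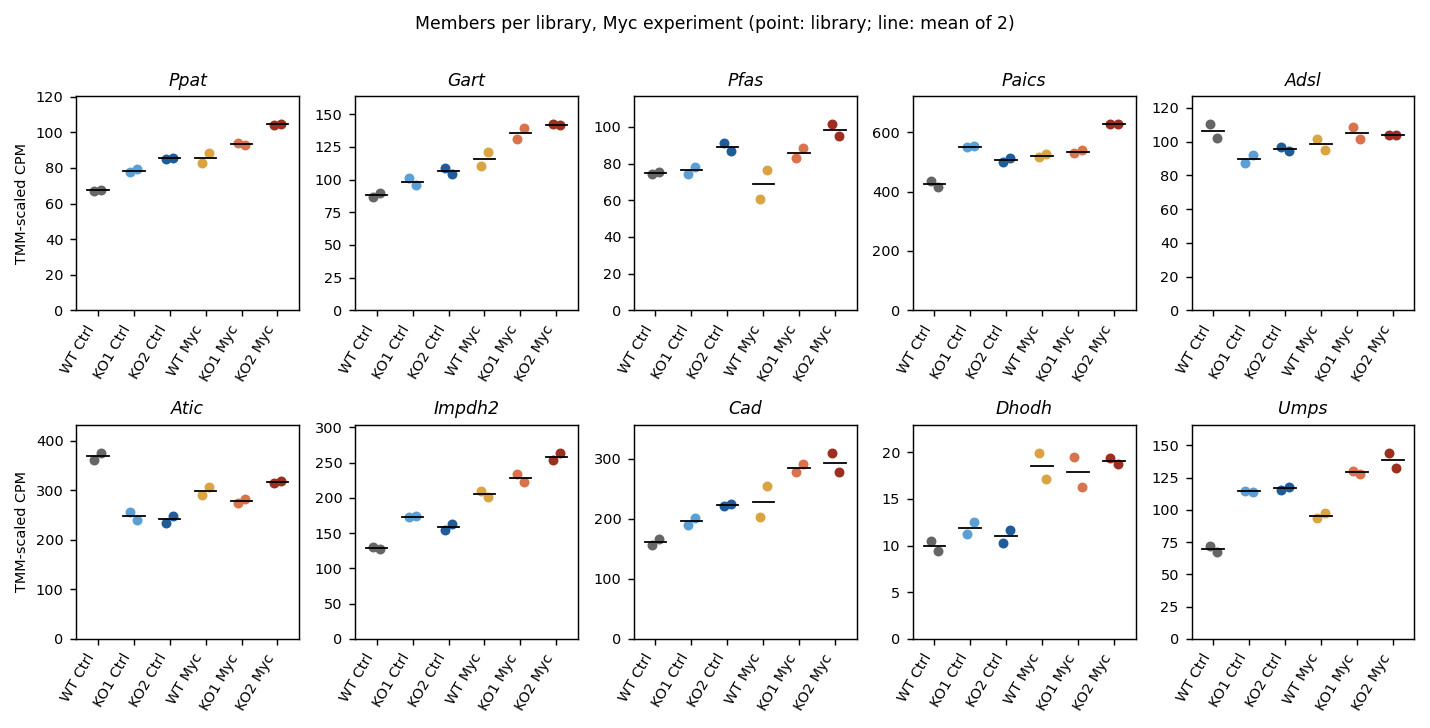
Level of each member in every library of the Myc experiment, as TMM-scaled CPM on a linear axis from 0 (points, 2 libraries per group; line, their mean). For 7 members the mean of WT Ctrl lies lowest (for Dhodh with overlap between libraries), whereas for Atic both WT Ctrl libraries lie highest, at 361 and 376 CPM.

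To see how loss of Trim33 bore on these genes, KO1 Ctrl and KO2 Ctrl were each compared with WT Ctrl, which both comparisons share. In KO1 Ctrl, 6 of 10 members passed the threshold (edgeR's quasi-likelihood test, Benjamini-Hochberg adjusted p under 0.01), against 52.2% of all genes. Ppat, Paics, Impdh2 and Umps, 4 members, rose, against 25.5% of all genes called higher, and Adsl and Atic, 2 members, fell, against 26.7% called lower. In KO2 Ctrl, 7 of 10 passed, against 49.9% of all genes, and these were 6 higher (Ppat, Gart, Paics, Impdh2, Cad and Umps; 23.3% of all genes) and Atic lower (26.6% of all genes). The median log2 fold change of the 10 members was 0.24 for KO1 Ctrl and 0.26 for KO2 Ctrl, and over all genes it was -0.0036 and -0.011. As these are bulk libraries, fewer cells that express a gene and less RNA per cell cannot be told apart.

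Umps, which completes UMP, showed the widest rise. It was at 71.9 and 67.2 CPM for WT Ctrl, 114 and 114 CPM for KO1 Ctrl and 116 and 118 CPM for KO2 Ctrl. The KO libraries all lay above both WT libraries, and the rise was 1.64-fold in KO1 (log2 fold change 0.72 ± 0.062 (SE), edgeR adjusted p = 4.42e-08) and 1.68-fold in KO2 (0.75 ± 0.062, edgeR adjusted p = 3.06e-08). Cad, which opens the same route, was at 156 and 167 CPM for WT Ctrl, 189 and 202 CPM for KO1 Ctrl and 222 and 225 CPM for KO2 Ctrl. Its rise in KO2 was 1.38-fold (0.47 ± 0.086, edgeR adjusted p = 2e-04), whereas in KO1 it missed the threshold (0.27 ± 0.087, edgeR adjusted p = 0.0114). Its groups did not overlap there, but that was usual. Groups did not overlap for 83.9% of all genes in KO1 Ctrl against WT Ctrl and for 82.1% in KO2 Ctrl against WT Ctrl. Dhodh, the least abundant member, was at 10.5 and 9.43 CPM for WT Ctrl, 11.2 and 12.6 CPM for KO1 Ctrl and 10.3 and 11.7 CPM for KO2 Ctrl, with overlap between WT and KO2 and no call in either line.

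Atic, the last enzyme before IMP, was the member that fell most. It was at 361 and 376 CPM for WT Ctrl, 257 and 240 CPM for KO1 Ctrl and 233 and 248 CPM for KO2 Ctrl. All 4 KO libraries lay below both WT libraries, by a log2 fold change of -0.57 ± 0.056 for KO1 (edgeR adjusted p = 2.08e-07) and -0.61 ± 0.056 for KO2 (edgeR adjusted p = 1.03e-07). Adsl, which acts just before it and also in the branch to AMP, was at 110 and 102 CPM for WT Ctrl, 87.3 and 92.1 CPM for KO1 Ctrl and 96.7 and 94.7 CPM for KO2 Ctrl. It fell in KO1 (-0.24 ± 0.063, edgeR adjusted p = 0.00316) and was not called in KO2 (-0.15 ± 0.063, edgeR adjusted p = 0.0494). The Adsl call in KO1 was lost without replicate 1 of WT Ctrl (edgeR adjusted p = 0.0511), without replicate 1 of KO1 Ctrl (0.0444) and with library totals in place of TMM (0.0157), where the split of called members was 5 higher and 1 lower.

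Of the other enzymes to IMP, Paics and Ppat rose in both lines, Gart was called in KO2 alone and Pfas in neither. Paics was at 436 and 416 CPM for WT Ctrl, 549 and 552 CPM for KO1 Ctrl and 500 and 511 CPM for KO2 Ctrl, a rise of 0.37 ± 0.049 (edgeR adjusted p = 6.01e-06) and 0.25 ± 0.049 (edgeR adjusted p = 0.000379) on the log2 scale. Its head-to-head neighbour Ppat was at 67.1 and 67.7 CPM for WT Ctrl, 77.5 and 79.3 CPM for KO1 Ctrl and 85.2 and 85.5 CPM for KO2 Ctrl. Ppat rose by 0.22 ± 0.058 for KO1 (edgeR adjusted p = 0.00385) and by 0.34 ± 0.058 in KO2 (edgeR adjusted p = 9.23e-05). The call in KO1 was lost without any 1 of the 4 libraries compared (edgeR adjusted p = 0.0158 without KO1 Ctrl replicate 1, 0.0198 without WT Ctrl replicate 2, 0.0246 without WT Ctrl replicate 1 and 0.0341 without KO1 Ctrl replicate 2) and under DESeq2 (adjusted p = 0.0159).

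Gart was at 87.0 and 89.8 CPM for WT Ctrl, 101 and 95.7 CPM for KO1 Ctrl and 109 and 104 CPM for KO2 Ctrl. It was called in KO2 (0.27 ± 0.063, edgeR adjusted p = 0.00143), a call lost without replicate 1 of WT Ctrl (edgeR adjusted p = 0.0183) or of KO2 Ctrl (0.0199), and not in KO1 (0.15 ± 0.063, edgeR adjusted p = 0.0434). Pfas was called in neither line (0.03 ± 0.087 and 0.25 ± 0.086, edgeR adjusted p = 0.768 and 0.0187). Impdh2, at the head of the guanine branch, was at 131 and 128 CPM for WT Ctrl, 173 and 174 CPM for KO1 Ctrl and 154 and 163 CPM for KO2 Ctrl. It rose 1.34-fold in KO1 (0.42 ± 0.056, edgeR adjusted p = 5.68e-06) and 1.22-fold in KO2 (0.29 ± 0.056, edgeR adjusted p = 0.000267), with every KO library above both WT libraries. Counted Myc mRNA was lower in these KO Ctrl libraries than in WT Ctrl (log2 fold change -1.19 in KO1 and -1.02 in KO2), and its part in the members' levels was not tested.

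**Figure D2:**
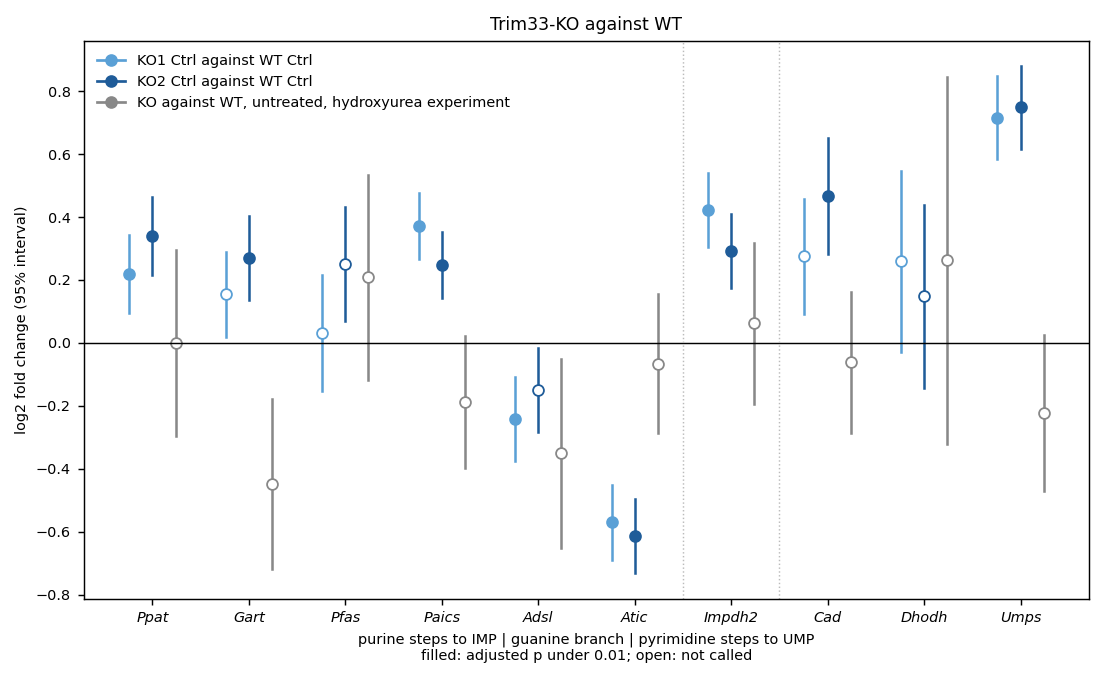
Log2 fold change of each member, Trim33-KO against WT, with its 95% interval: KO1 and KO2 with the control vector, and untreated KO cells of the HU experiment. Filled points passed the adjusted p threshold of 0.01. Umps rose in KO1 and KO2 and Atic fell, while the interval of the HU experiment includes 0 for both.

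KO was also compared with WT in vehicle-treated cells of the HU experiment, with other libraries, less depth and a KO line that the labels do not name. There 0 of 10 members passed the threshold (edgeR, adjusted p under 0.01), against 5.58% of all genes. At an unadjusted p under 0.05 there were 2, Gart and Adsl, and DESeq2 called 0. Umps was at 173 and 209 CPM in WT and 152 and 175 CPM in KO, which overlapped, and its log2 fold change of -0.22 had a 95% interval from -0.47 to 0.026. In the Myc experiment that interval ran from 0.58 to 0.85 for KO1 and from 0.62 to 0.88 for KO2. Atic was at 286 and 313 CPM in WT and 269 and 302 CPM in KO (log2 fold change -0.07, interval -0.29 to 0.15), against intervals of -0.69 to -0.45 for KO1 and -0.73 to -0.50 for KO2. Gart was at 145 and 144 CPM in WT and at 110 and 102 CPM in KO, without overlap (-0.45 ± 0.14, edgeR adjusted p = 0.0205). Groups did not overlap for 50.1% of all genes in this comparison. Gart passed the threshold with library totals in place of TMM (-0.49, edgeR adjusted p = 0.00979), and Adsl passed it without replicate 1 of untreated KO (-0.67, edgeR adjusted p = 0.00727). Trim33 mRNA differed between KO and WT by -1.49 on the log2 scale here and by -0.99 (KO1) and -0.31 (KO2) in the Myc experiment. Counted Myc mRNA differed by -0.019 here (edgeR adjusted p = 0.95) and by -1.19 (KO1) and -1.02 (KO2) there. The part of either in the members' values was not tested. As the tables were scaled apart, no test was made between the experiments.

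The Myc vector was then compared with the control vector within each line. In the libraries labelled WT Myc, 8 of 10 members passed the threshold against WT Ctrl (44.3% of all genes), with 7 higher (21.6%) and 1 lower (22.7%). For those labelled KO1 Myc, 6 of 10 passed against KO1 Ctrl (36.1%), with 6 higher (17.9%) and 0 lower (18.2%). In KO2 Myc, 8 of 10 passed against KO2 Ctrl (38.8%), with 8 higher (20.2%) and 0 lower (18.6%). The members' median log2 fold changes were 0.37, 0.24 and 0.35, and the medians over all genes were 0.0069, 0.0066 and 0.017. With library totals in place of TMM, the all-gene split in the first comparison moved from 2837 higher and 2970 lower to 3564 and 2368, while that of the members stayed at 7 and 1. Ppat, Gart, Impdh2, Cad and Dhodh, 5 of 10 members, rose in all 3 lines, against 2.59% of all genes. Counted Myc mRNA changed by 0.07 (edgeR adjusted p = 0.31), 1.73 and 1.16 on the log2 scale in the 3 comparisons, and Trim33 fell from WT Ctrl to the libraries labelled WT Myc (-0.82).

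Dhodh was the member with the widest rise. From 10.5 and 9.43 CPM for WT Ctrl it went to 19.97 and 17.2 CPM in the libraries labelled WT Myc, 1.86-fold (0.90 ± 0.13, edgeR adjusted p = 1.73e-05). It was at 19.5 and 16.3 CPM in those labelled KO1 Myc (0.59 ± 0.12 against KO1 Ctrl, edgeR adjusted p = 0.000752) and at 19.4 and 18.8 CPM in KO2 Myc (0.79 ± 0.12 against KO2 Ctrl, edgeR adjusted p = 4.75e-05). In each line both Myc libraries stood above both control vector libraries. Groups did not overlap, in either direction, for 75.2% (WT), 76.1% (KO1) and 77.5% (KO2) of all genes. The call in KO1 was lost without replicate 1 of KO1 Ctrl (edgeR adjusted p = 0.0163) or of KO1 Myc (0.0165), and with 138 to 340 counts per library Dhodh had the widest standard errors of the 10.

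Impdh2 had the next widest rise in WT and in KO2, whereas in KO1 Cad and Gart had higher values. It was at 209 and 201 CPM in the libraries labelled WT Myc, 233 and 222 CPM in those labelled KO1 Myc and 253 and 264 CPM in KO2 Myc. The rise over the control vector was 1.59-fold in WT (0.67 ± 0.055, edgeR adjusted p = 6.51e-08), 1.31-fold in KO1 (0.39 ± 0.054, edgeR adjusted p = 1.78e-05) and 1.63-fold in KO2 (0.71 ± 0.054, edgeR adjusted p = 2.6e-08). In each line both Myc libraries were above both control vector libraries, a separation that most genes showed in either direction (75.2% in WT, 76.1% in KO1 and 77.5% in KO2).

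Cad was at 202 and 254 CPM in the libraries labelled WT Myc, 278 and 292 CPM in those labelled KO1 Myc and 310 and 277 CPM in KO2 Myc. The 2 libraries labelled WT Myc stood further apart than the other pairs did. The log2 fold change was 0.50 ± 0.086 in WT (edgeR adjusted p = 0.000134), 0.54 ± 0.085 for KO1 (edgeR adjusted p = 6.53e-05) and 0.40 ± 0.085 in KO2 (edgeR adjusted p = 0.00101). Without replicate 2 of the libraries labelled WT Myc, the value in WT was 0.33 and still called (edgeR adjusted p = 0.00026). In KO2, Cad lost its call without replicate 1 (edgeR adjusted p = 0.0127) or 2 (0.0103) of KO2 Ctrl or replicate 1 of KO2 Myc (0.0192). Umps, the third enzyme of the route, was at 93.5 and 97.7 CPM in the libraries labelled WT Myc, 130 and 128 CPM in those labelled KO1 Myc and 144 and 133 CPM in KO2 Myc. It rose in WT (0.46 ± 0.062, edgeR adjusted p = 1.2e-05) and in KO2 (0.24 ± 0.059, edgeR adjusted p = 0.00241) and missed the threshold in KO1 (0.18 ± 0.059, edgeR adjusted p = 0.0213). The Umps call in KO2 was lost without KO2 Ctrl replicate 1 (edgeR adjusted p = 0.0269) or 2 (0.0151) or KO2 Myc replicate 1 (0.0428).

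At the entry to purine synthesis, Ppat was at 82.8 and 88.2 CPM in the libraries labelled WT Myc, 93.8 and 92.9 CPM in those labelled KO1 Myc and 104 and 105 CPM in KO2 Myc. Its rise was 0.34 ± 0.058 in WT (edgeR adjusted p = 0.000105), 0.25 ± 0.057 for KO1 (edgeR adjusted p = 0.0016) and 0.29 ± 0.056 in KO2 (edgeR adjusted p = 0.000404). In KO1 the Ppat call was lost without KO1 Ctrl replicate 1 (edgeR adjusted p = 0.0224), KO1 Ctrl replicate 2 (0.0109) or KO1 Myc replicate 2 (0.0102). Gart was at 110 and 121 CPM, 131 and 140 CPM, and 142 and 142 CPM in the same 3 groups, each pair above its own control pair. Groups did not overlap for 75.2% (WT), 76.1% (KO1) and 77.5% (KO2) of all genes in these comparisons. The rise of Gart was close in the 3 lines, at 0.39 ± 0.063 (edgeR adjusted p = 7.19e-05), 0.46 ± 0.061 (1.29e-05) and 0.41 ± 0.061 (3.54e-05).

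Paics and Atic did not move alike in the 3 lines. Paics was at 515 and 526 CPM in the libraries labelled WT Myc, 528 and 539 CPM in those labelled KO1 Myc, and 626 and 626 CPM in KO2 Myc. It rose in WT (0.29 ± 0.049, edgeR adjusted p = 0.00011) and KO2 (0.31 ± 0.049, edgeR adjusted p = 6.95e-05), and its value in KO1 was -0.05 ± 0.049 (edgeR adjusted p = 0.469). Atic was at 291 and 306 CPM in the libraries labelled WT Myc, 273 and 282 CPM in those labelled KO1 Myc, and 314 and 319 CPM in KO2 Myc. It fell in WT (-0.30 ± 0.056, edgeR adjusted p = 0.000225), rose in KO2 (0.39 ± 0.056, edgeR adjusted p = 2.41e-05) and missed the threshold in KO1 (0.16 ± 0.056, edgeR adjusted p = 0.0245). The 6 Atic values with the Myc vector, from 273 to 319 CPM, all lay between the KO Ctrl libraries and the WT Ctrl libraries.

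Adsl and Pfas changed little. Adsl was called only in KO1 (0.23 ± 0.062, edgeR adjusted p = 0.0064), where the call was lost without KO1 Ctrl replicate 1 (edgeR adjusted p = 0.077), KO1 Ctrl replicate 2 (0.0168) or KO1 Myc replicate 1 (0.0543) and under DESeq2 (adjusted p = 0.017). Pfas was at 60.8 and 76.5 CPM in the libraries labelled WT Myc, with WT Ctrl at 74.3 and 75.3 CPM inside that range, and was called in none of the 3 lines. Without replicate 2 of the libraries labelled WT Myc, Pfas passed the threshold as lower in WT (-0.30, edgeR adjusted p = 0.00165).

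**Figure D3:**
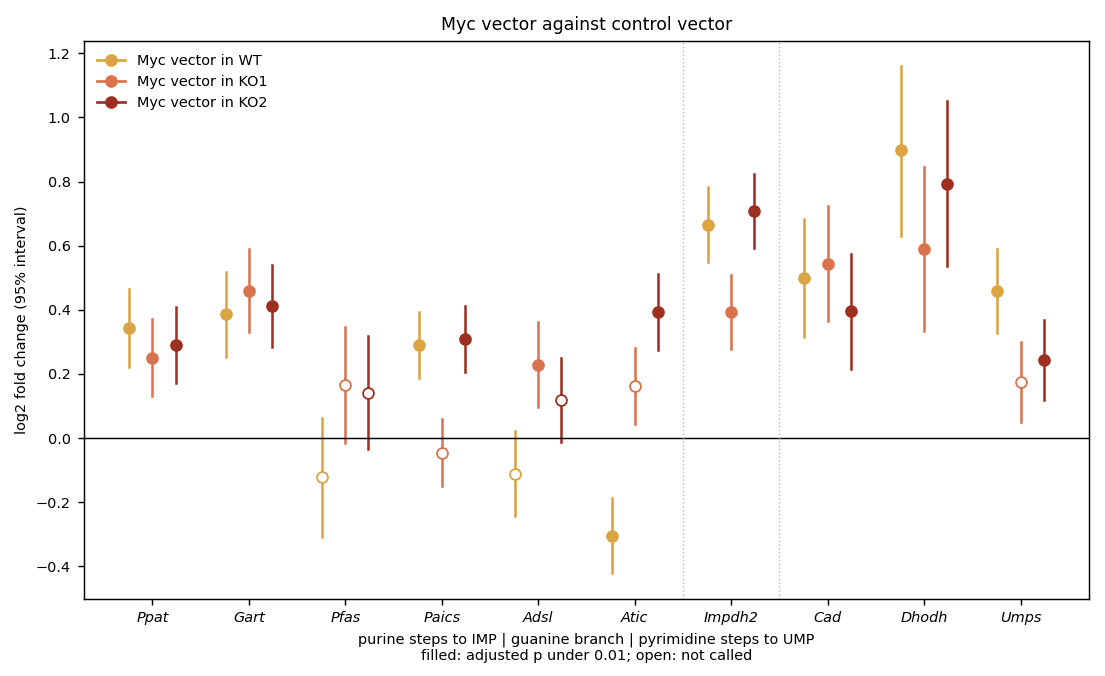
Log2 fold change of each member, Myc vector against control vector, in WT, KO1 and KO2, with its 95% interval. Filled points passed the adjusted p threshold of 0.01. Dhodh, Impdh2, Cad, Gart and Ppat are above 0 in all 3 lines, and Atic is below 0 in WT and above 0 in KO2.

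Whether the vector's effect differed between KO and WT was tested as the difference of the differences. For KO1, 4 of 10 members passed (edgeR, adjusted p under 0.01), against 37.3% of all genes. The Myc effect was higher in KO1 than in WT for Atic (0.47 ± 0.079, edgeR adjusted p = 0.000136) and Adsl (0.34 ± 0.088, edgeR adjusted p = 0.00446), and lower for Paics (-0.34 ± 0.069, edgeR adjusted p = 0.000775) and Impdh2 (-0.27 ± 0.077, edgeR adjusted p = 0.00817). For KO2, 1 of 10 passed, against 32.8% of all genes, and this was Atic (0.70 ± 0.079, edgeR adjusted p = 2.76e-06). The 3 pyrimidine enzymes did not pass in either line, with 95% intervals for the difference from -0.21 to 0.30 for Cad, -0.68 to 0.065 for Dhodh and -0.47 to -0.10 for Umps in KO1. With library totals in place of TMM the called members were 1 higher and 3 lower for KO1 and 1 higher and 1 lower for KO2, since Adsl was lost and Umps passed. The Adsl call was lost without WT Ctrl replicate 1 (edgeR adjusted p = 0.0291), KO1 Ctrl replicate 1 (0.0289) or KO1 Myc replicate 1 (0.0197), and the Impdh2 call was lost without 7 of the 8 libraries in turn (edgeR adjusted p from 0.0108 to 0.0419), the exception being WT Myc replicate 2. Without that replicate Pfas passed in both lines (0.47, edgeR adjusted p = 0.000253, in KO1 and 0.44, edgeR adjusted p = 0.000435, in KO2), and without WT Myc replicate 1 Umps passed in KO1 (-0.32, edgeR adjusted p = 0.00402). Both comparisons share WT Ctrl and the libraries labelled WT Myc, whose Trim33 mRNA was below that of the libraries labelled KO1 Myc. Counted Myc mRNA itself had a difference of 1.66 for KO1 and 1.09 for KO2, and its part was not tested.

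With the Myc vector present, the KO lines were compared with the libraries labelled WT Myc. In those labelled KO1 Myc, 4 of 10 members passed (25.1% of all genes), all 4 higher (12.6%) and 0 lower (12.5%): Gart, Pfas, Cad and Umps. In KO2 Myc, 7 of 10 passed (35.2%), all 7 higher (17.2%) and 0 lower (18.0%): Ppat, Gart, Pfas, Paics, Impdh2, Cad and Umps. The median log2 fold change of the members was 0.14 and 0.29, and that of all genes was -0.010 and -0.0038. Umps led here as well, with 130 and 128 CPM (KO1) and 144 and 133 CPM (KO2) against 93.5 and 97.7 CPM, or 0.43 ± 0.059 (edgeR adjusted p = 3.24e-05) and 0.53 ± 0.059 (edgeR adjusted p = 1.9e-06).

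Pfas, uncalled in the other comparisons of the Myc experiment, was at 82.9 and 88.6 CPM in the libraries labelled KO1 Myc and at 101 and 95.02 CPM in KO2 Myc. It was above both libraries labelled WT Myc in each (0.32 ± 0.085, edgeR adjusted p = 0.00784, and 0.51 ± 0.085, edgeR adjusted p = 0.000114). Groups did not overlap for 64.3% and 70.3% of all genes in these 2 comparisons. Atic, lower in the KO lines with the control vector, was called in neither line here (-0.10 ± 0.056 and 0.08 ± 0.056, edgeR adjusted p = 0.159 and 0.226). Without replicate 1 of the libraries labelled WT Myc, Gart (edgeR adjusted p = 0.0499), Pfas (0.16, edgeR adjusted p = 0.0847) and Cad (0.17, edgeR adjusted p = 0.0592) were no longer called in KO1, and Cad was no longer called in KO2 (0.21, edgeR adjusted p = 0.0133). Without KO1 Myc replicate 2 the adjusted p of the same 3 was 0.0911, 0.0761 and 0.0615, without KO1 Myc replicate 1 that of Cad was 0.0116, and without KO2 Myc replicate 1 that of Cad in KO2 was 0.0384. Without replicate 2 labelled WT Myc, the KO1 values grew to 0.50 for Pfas and 0.49 for Cad.

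In the HU experiment the question was how 4 h of ribonucleotide reductase inhibition changed the supply enzymes. In WT cells, 1 of 10 members passed the threshold (edgeR, adjusted p under 0.05), against 9.83% of all genes, and this was Atic. Atic went from 286 and 313 CPM untreated to 234 and 224 CPM with HU, without overlap (-0.39 ± 0.11, edgeR adjusted p = 0.0136). The call was lost without WT untreated replicate 2 (-0.34, edgeR adjusted p = 0.101), WT HU replicate 1 (-0.42, edgeR adjusted p = 0.0987) or WT HU replicate 2 (-0.36, edgeR adjusted p = 0.189). Gart, at 145 and 144 CPM untreated and 110 and 116 CPM with HU, and Impdh2, at 155 and 149 CPM and 124 and 126 CPM, were also lower without overlap but missed the threshold (-0.36 ± 0.13, edgeR adjusted p = 0.0796, and -0.28 ± 0.13, edgeR adjusted p = 0.179). In this comparison groups did not overlap for 5 of 10 members and for 51% of all genes. The 10 values ran from -0.39 to 0.0085, with a median of -0.14 against 0 over all genes.

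In KO cells, HU changed 0 of 10 members past the threshold (edgeR, adjusted p under 0.05), against 6.45% of all genes, and the values ran from -0.17 to 0.11. No member had an unadjusted p under 0.05 (0 of 10), and DESeq2 called 0. Atic was at 269 and 302 CPM untreated and 260 and 261 CPM with HU (-0.14 ± 0.11, edgeR adjusted p = 0.602). Under HU, 0 of 10 members differed between KO and WT at an edgeR adjusted p under 0.01, against 6.04% of all genes, while 2 had an unadjusted p under 0.05, Impdh2 and Dhodh, and DESeq2 called 0. Dhodh was at 28.3 and 22.1 CPM in KO HU and 20.4 and 12.5 CPM in WT HU, without overlap (0.61 ± 0.29, edgeR adjusted p = 0.173), on 36 to 80 counts per library. Here groups did not overlap for 55.4% of all genes.

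The HU effect itself differed between KO and WT for 0 of 10 members (edgeR, adjusted p under 0.05), against 0.0714% of all genes, with 0 at an unadjusted p under 0.05 and 0 by DESeq2. For Atic the difference was 0.25, with a 95% interval from -0.059 to 0.57, which includes 0. Over the same 4 h, counted Myc mRNA rose in WT, from 203 and 162 CPM to 385 and 331 CPM (0.98 ± 0.12, edgeR adjusted p = 1.46e-09), and in KO, from 181 and 178 CPM to 267 and 253 CPM (0.53 ± 0.12, edgeR adjusted p = 0.00118). None of the 10 members passed as higher beside it.

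**Figure D4:**
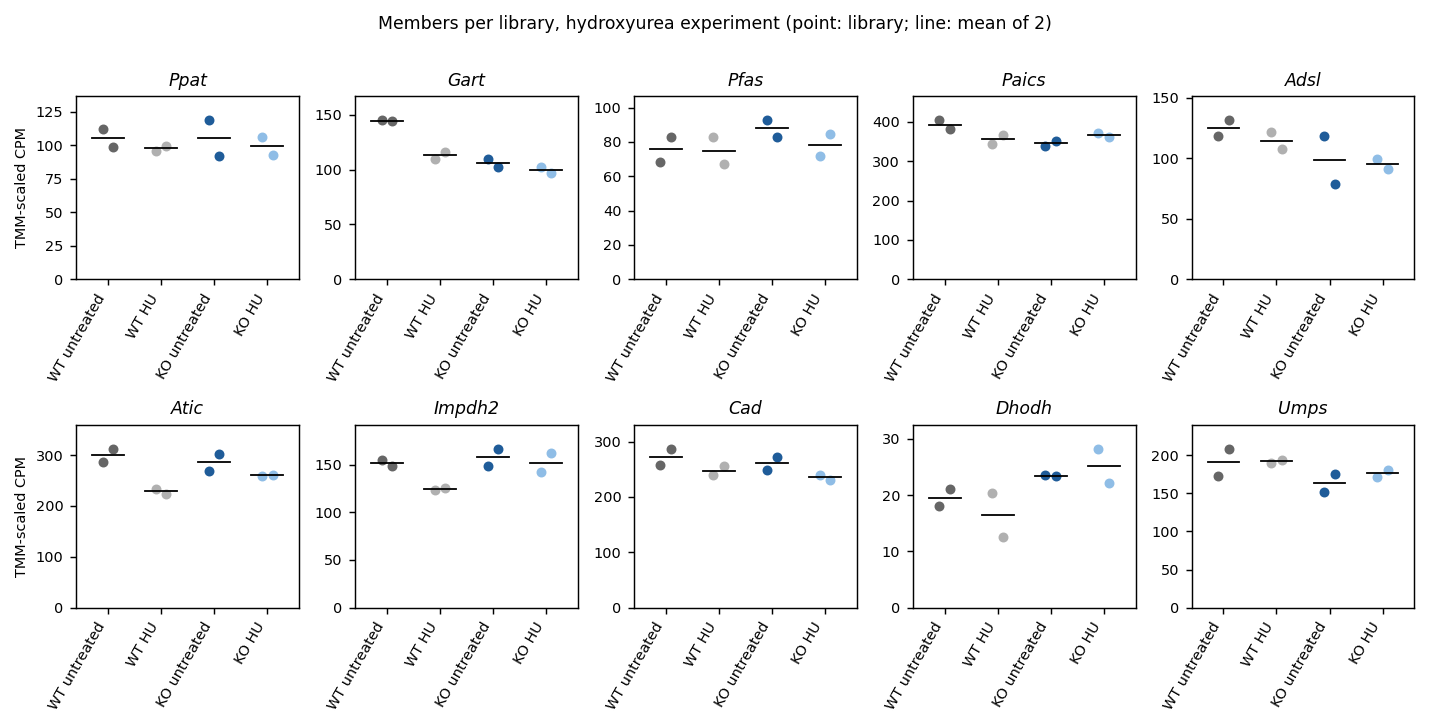
Level of each member in every library of the HU experiment, as TMM-scaled CPM on a linear axis from 0 (points, 2 libraries per group; line, their mean). Atic in WT goes from 286 and 313 CPM to 234 and 224 CPM with HU, and in KO it stays between 260 and 302 CPM.

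The members were set beside 35 other genes of nucleotide metabolism, of which 34 were in both tables and Dpyd in neither. In KO1 Ctrl against WT Ctrl, 26 of the 34 passed, against 52.2% of all genes, 13 higher and 13 lower, with a median of -0.039. In KO2 Ctrl, 26 passed, against 49.9% of all genes, 15 higher and 11 lower, with a median of 0.12. Every gene of deoxynucleotide supply was called in both lines, as were the 3 measured genes of breakdown. This was not seen in untreated KO against WT of the HU experiment. There 5 of the 34 passed, against 5.58% of all genes, 1 higher and 4 lower. None was among the 9 genes of deoxynucleotide supply, of which 3 had values above 0 and 6 below (median -0.13). The supply list also holds Samhd1, which breaks deoxynucleotides down and was called higher (0.78 in KO1, 0.87 in KO2). Of the 9 genes of supply, 7 rose and 2 fell in KO1 (median 0.79) and likewise 7 and 2 in KO2 (median 0.94). Tk1, the S-phase thymidine kinase, rose in both (40.3 CPM for WT Ctrl on average, 97.1 CPM for KO1 Ctrl and 108 CPM for KO2 Ctrl, log2 fold changes 1.27 and 1.42, edgeR adjusted p = 4.74e-10 and 1.7e-10). Rrm2, a ribonucleotide reductase subunit, rose in KO2 (log2 fold change 1.49, edgeR adjusted p = 2.71e-10) and also in KO1 (0.97, edgeR adjusted p = 3.61e-08).

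Salvage, which reuses bases and nucleosides, had 6 of 7 genes called in each KO line, 2 higher and 4 lower in both, with medians of -0.32 and -0.30, where 52.2% and 49.9% of all genes were called. Uckl1, a uridine-cytidine kinase-like enzyme, was among the genes of widest change in KO1 (-1.07, edgeR adjusted p = 2.35e-08). Of 6 genes at the branches from IMP and UTP, 3 fell and none rose in KO1, and 1 rose and 2 fell in KO2. The PRPP suppliers split, with 1 higher and 2 lower of 4 in KO1 and 2 higher and 1 lower in KO2. Xdh, the xanthine dehydrogenase of purine breakdown, had the widest rise of the 34 in KO1 (87.6 CPM on average against 31.0 CPM for WT Ctrl, 1.5, edgeR adjusted p = 4.53e-11). In untreated KO cells of the HU experiment, Xdh was lower than in WT (5.04 against 26.9 CPM on average, -2.39, edgeR adjusted p = 3.27e-06).

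With the Myc vector, 23 of the 34 passed in WT (17 higher, 6 lower, median 0.24), 22 in KO1 (12 and 10, median 0.058) and 18 in KO2 (7 and 11, median -0.013), against 44.3%, 36.1% and 38.8% of all genes. In deoxynucleotide supply 7 genes rose and 1 fell in WT, but 2 rose and 3 fell in KO1 and 2 rose and 4 fell in KO2. For those 9 genes the Myc effect was lower than in WT for 7 in KO1 and for 6 in KO2, and higher for 1 in each, at an adjusted p under 0.01 (37.3% and 32.8% of all genes passed, in either direction), with medians of -0.77 and -0.71. Tk1 rose in WT (1.35, edgeR adjusted p = 9.41e-10), and the difference of its Myc effect from WT was -1.39 for KO1 (edgeR adjusted p = 1.94e-08) and -1.40 in KO2 (edgeR adjusted p = 2.29e-08). Of 4 PRPP suppliers, 2 rose in WT, 3 rose in KO1, and 2 fell and 0 rose in KO2. Prps2, a PRPP synthetase, rose in WT (1.20, edgeR adjusted p = 3.26e-07), and Prps1, another, rose in KO1 (1.16, edgeR adjusted p = 4.7e-09). Looked up afterwards, Prps2 also rose in KO1 (0.76, edgeR adjusted p = 3e-05) and Prps1 in WT (0.58, edgeR adjusted p = 6.8e-06). In KO2, where they were looked up after these values were seen, both fell (Prps1 -0.43, edgeR adjusted p = 0.000178, and Prps2 -0.51, edgeR adjusted p = 0.000999), and the difference of the Myc effect from WT was -1.01 for Prps1 (edgeR adjusted p = 1.19e-06) and -1.70 for Prps2 (edgeR adjusted p = 3.13e-07). Against the libraries labelled WT Myc, 10 of the 34 passed in those labelled KO1 Myc (25.1% of all genes), 1 higher and 9 lower, and 15 passed in KO2 Myc (35.2%), 3 higher and 12 lower, where the 4 and 7 called members were all higher.

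In the HU experiment, 2 of the 34 passed in WT, against 9.83% of all genes, both lower: Adss, which takes IMP towards AMP (-0.45, edgeR adjusted p = 0.00651), and Ctps, which makes CTP from UTP (-0.41, edgeR adjusted p = 0.0244). In KO 2 passed, against 6.45% of all genes: Ctps was lower (-0.40, edgeR adjusted p = 0.0312) and Prps2 was higher (0.49, edgeR adjusted p = 0.0495).

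**Figure D5:**
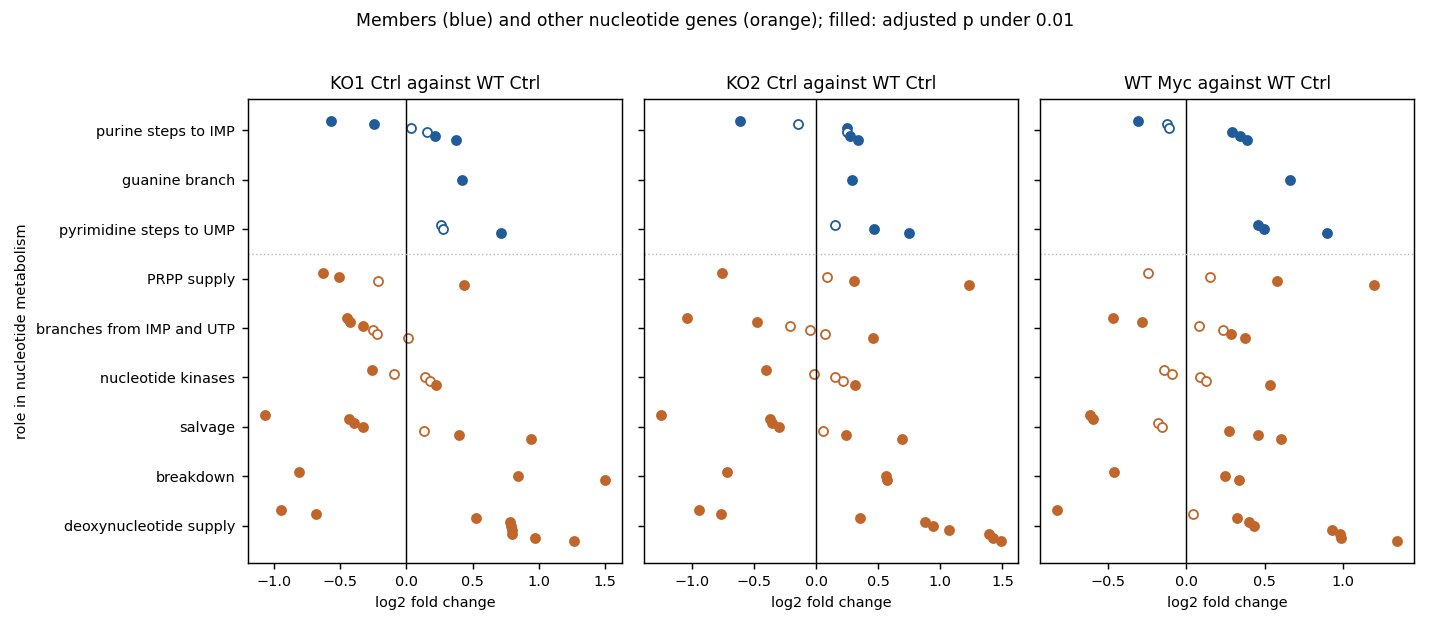
Log2 fold change of each gene by its role in nucleotide metabolism, members in blue and the 34 other genes in orange, in KO1 Ctrl, KO2 Ctrl and the libraries labelled WT Myc, each against WT Ctrl. Filled points passed the adjusted p threshold of 0.01. Members lie between -0.61 and 0.90. Most other roles reach farther: deoxynucleotide supply 1.49 (KO2), breakdown 1.5 (KO1), PRPP supply 1.23, salvage -1.25 and the branches -1.04 (all KO2). Nucleotide kinases stay between -0.40 and 0.53.

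To describe which genes ran most like the members, each gene's 6 group means (log2 CPM, centred on their average) were set against the mean profile of the 10 members, which rose from -0.28 in WT Ctrl over -0.12 in KO1 Ctrl, -0.083 in KO2 Ctrl, 0.015 for those labelled WT Myc and 0.17 in those labelled KO1 Myc to 0.30 in KO2 Myc. Of 10253 genes outside the lists, those close to it by root mean square distance included Ppif (0.037), Telo2 (0.041), Nolc1 (0.041) and Zscan12 (0.046). Among the members, Ppat (0.045) and Gart (0.058) lay nearest to the mean profile and Atic (0.30), Dhodh (0.23) and Umps (0.20) farthest from it.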

How the data were processed

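RNA of p19/Nras cells was sequenced by the study from TRIzol (labels) or RNeasy (methods) extracts with an NEBNext Ultra kit, and reads were mapped to mm9 with STAR 2.5.4, per the submitters' processing notes, which also name edgeR 3.26.8 and, for the HU samples, bcl2fastq 2.20 and FastQC 0.11.5. The tool that counted reads per gene is not given in the sources used here, nor is a strand setting. The authors deposited whole-number counts per gene in 1 table for the 12 libraries of the Myc experiment and 1 for the 8 libraries of the HU experiment. The former is called normalized in its name, but its totals differ between libraries and no scaling step was found in the sources used here, so it was treated as raw counts. Of counts from 1 to 50, 48.4% were even in the former and 71.9% in the latter, so HU counts were also tested after division by 2. Gene symbols were missing for 298 of 13107 and 168 of 11210 genes. Fold-change and p-value columns of the authors' own comparisons were not used.

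Counts were scaled by TMM and tested with edgeR 4.0.16 (R 4.3.3, limma 3.58.1): filterByExpr, which removed 0 genes, and the quasi-likelihood test with 1 coefficient per group over all libraries of an experiment, adjusted by Benjamini-Hochberg over all genes. The threshold was 0.01, and 0.05 for HU effects. Standard errors are the log2 fold change divided by the square root of F, and intervals are 95%. The biological coefficient of variation was 0.0498 for the Myc libraries and 0.102 for the HU libraries. All 10 members passed the filter. No replicate columns were identical. The mean squared difference between replicates was 2.21 to 11 times that of counting noise, largest in the libraries labelled WT Myc. Names were given to all members, to Trim33 and Myc, and to the 3 called pathway genes of largest change in a comparison, though not every gene this rule or the likeness measure picked is reported here. The members, lists and tests were chosen with earlier results of these data known. Gene models came from GENCODE vM1 on NCBIM37, the assembly of mm9, and promoter sequences from RefSeq (table build GRCm38.p6), relocated by exact match in NCBIM37 (1 match each) with Python 3.11.15. Alternatives were a replicate block, RLE factors, library totals, a minimum of 5 CPM, no filter, only the groups compared, each library left out, and DESeq2 1.42.0. The code was also run on simulated counts with known changes, drawn with the spread fitted to these data. That run checked the code and is no support for any result given here.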

Additional observations from a re-analysis of the deposited data

Results flagged for a closer look

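The Myc vector's effect differed between a KO line and WT, by the test of the difference itself, in 5 cases, given here as values without an explanation. For KO1 these were 4 of 10 members, against 37.3% of all genes. For KO2 it was 1 of 10, against 32.8%, so such differences were not particular to the members. Atic stood out in both lines, with a difference of 0.47 for KO1 and 0.70 for KO2 (log2, edgeR adjusted p = 0.000136 and 2.76e-06). Both Atic libraries labelled WT Myc were below both WT Ctrl libraries, and in each KO line both Myc libraries were above both Ctrl libraries. Such separation was seen for 75.2% (WT), 76.1% (KO1) and 77.5% (KO2) of all genes, in either direction. Both calls held under every alternative run, each library left out included. For KO1, Paics differed by -0.34 (edgeR adjusted p = 0.000775), also under every alternative. Adsl differed by 0.34 (edgeR adjusted p = 0.00446) and lost the call without WT Ctrl replicate 1, KO1 Ctrl replicate 1 or KO1 Myc replicate 1, with library totals (adjusted p = 0.0156) and with the compared groups alone (0.0124). Impdh2 differed by -0.27 (edgeR adjusted p = 0.00817) and lost the call in 7 of 8 fits that left out a library, with the compared groups alone (0.0157) and under DESeq2 (0.0191). Trim33 mRNA in the libraries labelled WT Myc, at 131 and 155 CPM, was below that in the libraries labelled KO1 Myc, at 185 and 193 CPM, and its part in these differences was not tested. The rise of counted Myc mRNA with the vector also differed from WT, by 1.66 for KO1 and 1.09 for KO2, and its part was not tested.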

How the results depend on the processing

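Of the 52 member calls, 0 were lost without a filter, with RLE factors, with at least 5 CPM in every library or with a replicate block, 4 under DESeq2, 5 with library totals and 9 with the compared groups alone, and no called value changed sign in any fit. Leaving out 1 library in turn lost 44 of 228 calls and gained 5. With library totals the members called were 1 for KO1 Myc against WT Myc, 2 for the difference of the Myc effect in KO2 and 1 for untreated KO against WT. With the compared groups alone they were 1 for KO1 Myc and 3 for KO2 Myc against WT Myc, and 2 for the difference in KO1. With each library left out, members called ranged from 4 to 5 (KO1 Ctrl against WT Ctrl), 6 to 7 (KO2 Ctrl), 8 to 9 (WT Myc), 3 to 5 (KO1 Myc against KO1 Ctrl), 6 to 8 (KO2 Myc against KO2 Ctrl), 1 to 4 and 6 to 7 (KO1 Myc and KO2 Myc against WT Myc), 2 to 5 and 1 to 2 (the differences in KO1 and KO2), 0 to 1 (HU in WT), 0 to 0 (HU in KO, KO against WT under HU, and the difference in HU effect) and 0 to 1 (KO against WT untreated). A group left with 1 library was assumed to vary like the others. The cause of these losses was not tested.

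Over all genes, the compared groups alone gave 1541 calls in place of 3291 (KO1 Myc against WT Myc), 2775 in place of 4614 (KO2 Myc against WT Myc) and 1099 in place of 677 (KO HU against WT HU). DESeq2 gave 727 for 1102 (HU in WT), 456 for 723 (HU in KO), 396 for 626 (KO against WT untreated), 402 for 677 (KO HU against WT HU) and 5 for 8 (difference in HU effect). Leaving out 1 library gave as few as 1906 for KO1 Myc against WT Myc, 553 for HU in WT, 389 for HU in KO, 337 for KO against WT untreated and 248 for KO HU against WT HU, and 0 to 20 for the difference in HU effect. With library totals, calls over all genes were 1675 higher and 2683 lower in place of 2172 and 2124 for the difference in KO2, 283 and 370 in place of 344 and 282 for KO against WT untreated, and 271 and 377 in place of 367 and 310 under HU.

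With a replicate block, Cad passed in KO1 Ctrl (0.28, adjusted p = 0.00879) and no other member call changed. The deviations of same-numbered libraries correlated from -0.148 to 0.192 between groups with or without the Myc vector and from -0.0136 to 0.051 between those with or without HU, so the numbers were not taken to pair the libraries. In the HU experiment depth was lower, the biological coefficient of variation was higher (0.102 against 0.0498) and the standard errors of the members' log2 fold changes were wider, so that a small change could go undetected; the part of each was not tested.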
